A study of Homo sapiens with 16 samples.

Results

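HNRNPH1 was targeted by RNA interference in HT-1080 cells, an established human fibrosarcoma line, and RNA levels were read from short-read RNA-seq of 6 of the 16 samples of the series. The 6 libraries were taken by their labels: 3 came from cells transfected with a negative control small interfering RNA (siNegative) and 3 from cells transfected with an siRNA against HNRNPH1 (siHNRNPH1). Both siRNAs were used at 20 nM with a lipid carrier, cells were grown in the same serum-supplemented EMEM medium, and RNA was purified 48 h later from biological replicates, per the labels. All 6 libraries therefore share the cell line, the transfection and the siRNA dose, and untransfected HT-1080 cells were not analysed here. The labels give no clone or passage of the line, and 1 time point and 1 dose were measured. All siHNRNPH1 libraries carry the same siRNA label, no rescue is among them, and HNRNPH1 protein was not measured here. Loss of HNRNPH1 and other effects of its siRNA therefore cannot be told apart.

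HNRNPH1 is an abundant nuclear protein that binds runs of guanines in RNA. Depending on where such a run lies relative to an exon, the protein can promote or repress use of that exon, and it also acts on polyadenylation and RNA stability. It has close relatives, HNRNPH2 and HNRNPF, that bind similar sequences. A knockdown can therefore be read at the gene level, as the summed counts of all transcripts of a gene, and as transcript usage, the percent of a gene's counts that RSEM assigned to each transcript.

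The libraries held 27304426 to 32653160 expected counts. Of 61906 genes in the table, 16145 passed the expression filter. Levels are given as CPM, in which the counts of a gene are scaled to the total of its library. Across these genes log2 CPM correlated with a Pearson r of 0.9978 to 0.9981 among the siHNRNPH1 libraries and between siNegative replicates 1 and 3, against 0.9959 and 0.996 for siNegative replicate 2 with each of those. Its chi-square per degree of freedom against them was 16.18 and 15.81, where the other pairs of 1 group stood at 1.74 to 2.32, so siNegative replicate 2 stood apart and no library was a copy of another. Results that this library decides are given with and without it. Of 13 mesenchymal markers, 12 passed the filter, and vimentin (VIM) fell from 4233 CPM ± 105.5 in the siNegative libraries to 2528 CPM ± 55.1 in the siHNRNPH1 libraries (SD, n = 3 each). The markers did not fall together. At an edgeR BH-adjusted p under 0.05, 7 were lower and 3 higher, the latter MMP14, TIMP1 and CDH2. Over all genes tested 32.6% were lower and 32.7% higher. The summed level of the 13 markers was 11867 to 12041 CPM with siNegative and 8995 to 9105 CPM with siHNRNPH1, and S100A4 was nearly absent at a mean of 0.355 CPM. Epithelial markers summed to 0.793 to 1.36 CPM with siNegative and 0.788 to 1.13 CPM with siHNRNPH1, with CDH1, GRHL2 and KRT14 at 0. Endothelial markers summed to 0.365 to 1.19 and 0.822 to 1.13 CPM. The 8 leukocyte markers, of which 1 was tested, summed to 0.963 to 1.36 CPM with siNegative and 0.205 to 0.492 CPM with siHNRNPH1. In that list PTPRC, CD3E and TYROBP were at 0, while ITGAM went from 1.06, 0.697 and 1.12 CPM to 0, 0.0306 and 0 CPM. Markers listed for HEK-293T, the other line of the series, summed to 141.8 to 150.2 and 115.7 to 120.4 CPM, and these came from NEFL, LIN28B and LHX1, with STMN2 at 0.

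The target fell. HNRNPH1 (ENSG00000169045.17) stood at 634.6, 605.8 and 617.2 CPM in the siNegative libraries and at 231.5, 231.0 and 228.5 CPM in the siHNRNPH1 libraries. The groups were far apart and the siHNRNPH1 libraries lay close together. This is -1.49 on the log2 scale (SE 0.042; edgeR quasi-likelihood BH-adjusted p = 6.76e-09). The RNA that was left also had another composition: transcript ENST00000514332.5 held 11.6, 8.8 and 12.3% of the HNRNPH1 counts with siNegative and 20.7, 22.0 and 24.1% with siHNRNPH1 (limma diffSplice BH-adjusted p = 1.23e-09 for the gene). Its share was higher in each of the 3 siHNRNPH1 libraries.

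The comparison of all genes asked how far the transcriptome of HT-1080 cells moved. At a BH-adjusted p under 0.05, 5274 genes were higher (32.7% of those tested) and 5264 lower (32.6%), so that 65.3% of the tested genes passed, with a median absolute log2 fold change of 0.57 among them. A change of at least 2-fold was reached by 1405 higher genes (8.7%) and 1109 lower genes (6.87%). Since so many genes passed, these shares are the background against which gene lists are read. The median log2 fold change over all genes tested was 0.006. Without siNegative replicate 2, 11625 genes passed; of the 10538 genes called with all libraries, 10223 were among them, all with the same sign.

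Among genes at a mean of at least 10 CPM, the largest rises were in genes of varied function. ADARB2, a brain-enriched relative of the RNA-editing adenosine deaminases, went from 4.1, 3.45 and 4.36 CPM to 49.1, 46.4 and 50.7 CPM. PTGS2, the inducible cyclooxygenase of prostaglandin synthesis, went from 4.5, 4.18 and 5.32 to 40.8, 40.3 and 41.1 CPM. CEMIP, a protein needed for hyaluronan breakdown, went from 116.8, 93.4 and 117.9 to 726.2, 698.1 and 726.7 CPM. In each of these genes the siHNRNPH1 libraries lay above every siNegative library, by a log2 fold change of 3.55 (SE 0.082), 3.05 (SE 0.08) and 2.65 (SE 0.082), at edgeR BH-adjusted p = 5.06e-09, 6.04e-09 and 9.96e-09. The other genes in the 12 highest were the actin-like ACTBL2 (3.41), the glycosyltransferase GALNT15 (3.35), the potassium channel KCNJ6 (3.11), the membrane protease MMP24 (2.96), the antisense-named BCAN-AS1 (2.95), the activin subunit INHBA (2.62), the neuronal adhesion protein ELFN2 (2.36), netrin-4 (NTN4, 2.32) and thrombospondin 1 (THBS1, 2.12), all as log2 fold changes. ACTBL2 closely resembles the other actin genes, and the strand setting of the counting is not given in the sources used here, so ACTBL2 and BCAN-AS1 are uncertain.

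**Figure D1:**
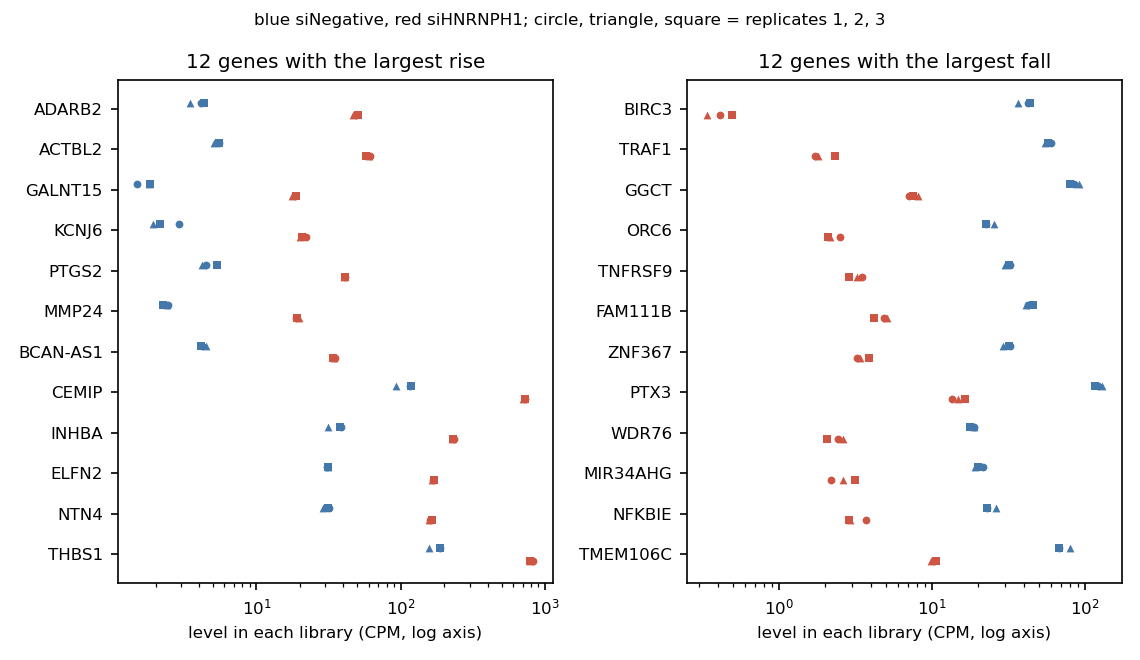
Level in each library (CPM, log axis) of the 12 genes with the largest rise and the 12 with the largest fall by the naming rule, with siNegative in blue and siHNRNPH1 in red. In all 24 genes the groups do not overlap, and BIRC3 ends at 0.337 to 0.492 CPM.

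The 12 largest falls held 4 genes of the NF-kB list and, from the DNA replication list, ORC6. BIRC3, an inhibitor-of-apoptosis ubiquitin ligase that is a known NF-kB target, fell from 42.5, 36.3 and 43.6 CPM to 0.411, 0.337 and 0.492 CPM. Every siHNRNPH1 library was far below every siNegative library, by a log2 fold change of -6.69 (SE 0.14), with an edgeR BH-adjusted p = 3.46e-09. GGCT, an enzyme of glutathione turnover, fell from 84.5, 91.8 and 80.3 to 7.06, 8.12 and 7.52 CPM (log2 fold change -3.56, SE 0.079), and PTX3, a secreted pattern-recognition protein, from 121.5, 129.9 and 117.3 to 13.5, 14.8 and 16.4 CPM (-3.11, SE 0.076). Their groups did not overlap either, at edgeR BH-adjusted p = 4.79e-09 and 5.7e-09. The rest of the 12 lowest were TRAF1 (-4.95), the replication origin subunit ORC6 (-3.44), TNFRSF9 (-3.36), FAM111B (-3.26), ZNF367 (-3.23), WDR76 (-3.02), the host transcript MIR34AHG (-3.0), NFKBIE (-3.0) and TMEM106C (-2.87).

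The cell-cycle lists fell as a block. DNA replication begins when the origin recognition complex and the MCM helicase are loaded and then fired, and E2F transcription factors drive the genes for this step. All 50 members of the DNA replication and G1/S list passed the filter, 0 were higher and 50 lower, with a median log2 fold change of -1.65, against 32.6% lower and a median of 0.006 over all genes. All 65 members of the mitosis and kinetochore list were lower, with a median of -1.51. Of 34 genes of homologous recombination and the Fanconi pathway, which repair broken and crosslinked DNA, 33 were lower and 1 higher, with a median of -1.33. Without siNegative replicate 2 these counts were the same (with library size alone, 49 of the 50 replication genes were lower), and the medians were -1.58, -1.50 and -1.38. The lists were set with earlier results of these data known, so the counts describe them and are no independent test.

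Promoters of some of these genes are shown because many carry the short elements through which E2F and the cell-cycle CHR element are known to act. They are examples picked from genes with a match upstream of the start. No window was obtained for other genes, ORC6, CCNE2, TPX2 and UBE2C among them. Some of these, such as ORC6 and CCNE2, were not searched, so a missing window does not mean a missing motif. Windows of 30 bases are from RefSeq (GRCh38.p14), 5′ to 3′ on the strand of the gene, with the motif in capitals, and each lies upstream of the start that is listed first for the gene. The first 3 hold an E2F motif and the other 4 a CHR motif.
E2F1: ggcaaaaaggaTTTGGCGCgtaaaagtggc
E2F2: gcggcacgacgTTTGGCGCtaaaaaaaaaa
MCM3: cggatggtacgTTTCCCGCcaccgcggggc
ESPL1: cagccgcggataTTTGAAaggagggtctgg
CDC20: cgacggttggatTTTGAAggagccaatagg
CCNB2: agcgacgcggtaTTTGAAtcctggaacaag
PLK1: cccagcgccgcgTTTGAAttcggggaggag
The windows are chr20:33686387-33686416 (minus strand) for E2F1, chr1:23531257-23531286 (minus) for E2F2, chr6:52284898-52284927 (minus) for MCM3, chr12:53268256-53268285 (plus) for ESPL1, chr1:43358904-43358933 (plus) for CDC20, chr15:59105105-59105134 (plus) for CCNB2 and chr16:23678848-23678877 (plus) for PLK1.

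Motifs were searched on both strands of promoter windows that run from 250 bases before to 50 bases after the start. An E2F site was any of TTTCCCGC, TTTCGCGC, TTTGCCGC and TTTGGCGC, a CHR element TTTGAA, and a CCAAT box CCAAT. No motif is contained in another, though neighbouring matches can share bases. Of the DNA replication and G1/S list, 43 of 50 genes had a window and 22 of them (51.2%) held an E2F site, against 5.4% of the 11123 tested genes with a window and 3.33% of all 27305 windows. In the mitosis and kinetochore list, 39 of 56 windows (69.6%) held a CHR element, against 9.83% of tested genes and 15.4% of all windows. Of genes that fell at least 2-fold, 11.8% held an E2F site and 17.2% a CHR element, and of genes that rose at least 2-fold, 3.57% and 12.5%. A match is a description of the letters in the window, not a bound site or a cause.

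The replication genes fell at every step of the process. The transcription factor E2F1 went from 33.9, 39.0 and 35.0 CPM to 6.13, 6.49 and 5.48 CPM, a log2 fold change of -2.64 (SE 0.088; edgeR BH-adjusted p = 1.37e-08). ORC6, part of the origin recognition complex, went from 22.6, 25.3 and 22.5 to 2.5, 2.17 and 2.11 CPM (-3.44, SE 0.099; edgeR BH-adjusted p = 7.29e-09). CCNE2, a cyclin of the G1/S step, went from 16.8, 15.5 and 15.8 to 2.6, 2.88 and 2.77 CPM (-2.61, SE 0.085; edgeR BH-adjusted p = 1.22e-08). For these 3 genes no siHNRNPH1 library reached the lowest siNegative library. The MCM helicase subunits MCM2, MCM3, MCM4, MCM5, MCM6 and MCM7 had log2 fold changes of -1.99, -2.0, -1.71, -1.9, -1.9 and -1.45, and each passed the test. The smallest falls in the list were those of CCNE1 (-0.42), E2F7 (-0.3), DUT (-0.22) and E2F3 (-0.2), and in E2F7 and E2F3 the libraries of the groups overlapped. All 8 tested E2F family genes were lower, with a median of -1.12; 7 were lower with library size alone and without either siNegative replicate 3 or siHNRNPH1 replicate 3, and the median of the 5 at 10 CPM or more was -0.41. The activator E2F3 moved least and E2F1 and E2F2 moved most.

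Mitotic genes fell to a similar depth. ESPL1, the separase that cuts cohesin at anaphase, went from 80.8, 70.7 and 80.9 CPM to 12.4, 14.2 and 12.5 CPM (log2 fold change -2.63, SE 0.076; edgeR BH-adjusted p = 7.29e-09). TPX2, which activates Aurora A on the spindle, went from 271.2, 269.3 and 279.7 to 63.9, 62.9 and 54.8 CPM (-2.24, SE 0.061; edgeR BH-adjusted p = 6.39e-09). UBE2C, the ubiquitin-conjugating enzyme of the anaphase-promoting complex, went from 105.4, 124.4 and 107.6 to 26.5, 27 and 24.4 CPM (-2.18, SE 0.078; edgeR BH-adjusted p = 1.93e-08). The groups did not overlap in any of the 3. MKI67, the proliferation antigen, had a siNegative replicate 2 below the others, at 495.1, 366.4 and 502.0 CPM, and it stood at 140.6, 132.1 and 127.1 CPM with siHNRNPH1. Its change was -1.84 with all libraries and -1.97 without that replicate. The smallest falls were those of CKAP5 (-0.66), INCENP (-0.75) and BUB3 (-0.78). In bulk RNA, fewer cells in a phase of the cycle and less of an RNA per cell cannot be told apart.

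Cyclins, their kinases and inhibitors followed the same direction, with 19 of 22 tested genes lower (24 listed), 1 higher and a median log2 fold change of -0.93. Among all genes tested, 32.6% were lower and 32.7% higher. Cyclin D1 (CCND1), which opens the G1 phase with CDK4 and CDK6, went from 1809, 1675 and 1765 CPM to 320.9, 332.6 and 324.8 CPM. All siHNRNPH1 libraries were far below all siNegative libraries, with a log2 fold change of -2.49 (SE 0.049) and an edgeR BH-adjusted p = 2.71e-09. PKMYT1, a kinase that restrains CDK1, and CDC25A, a phosphatase that activates CDKs, changed by -2.49 and -2.02. CDKN1A, the p21 inhibitor of CDKs, was at 302.5 CPM ± 2.46 in the siNegative and 254.3 CPM ± 5.21 in the siHNRNPH1 libraries (SD, n = 3 each), a change of -0.32 (edgeR BH-adjusted p = 8.45e-05). CCNG2, an atypical cyclin, was the member that rose (0.61). The p53 target list, which holds CDKN1A, had 8 of 28 tested genes higher (28.6%) and 13 lower (46.4%), with a median of -0.09. Its member MDM2 (0.03, edgeR BH-adjusted p = 0.626) did not pass.

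**Figure D2:**
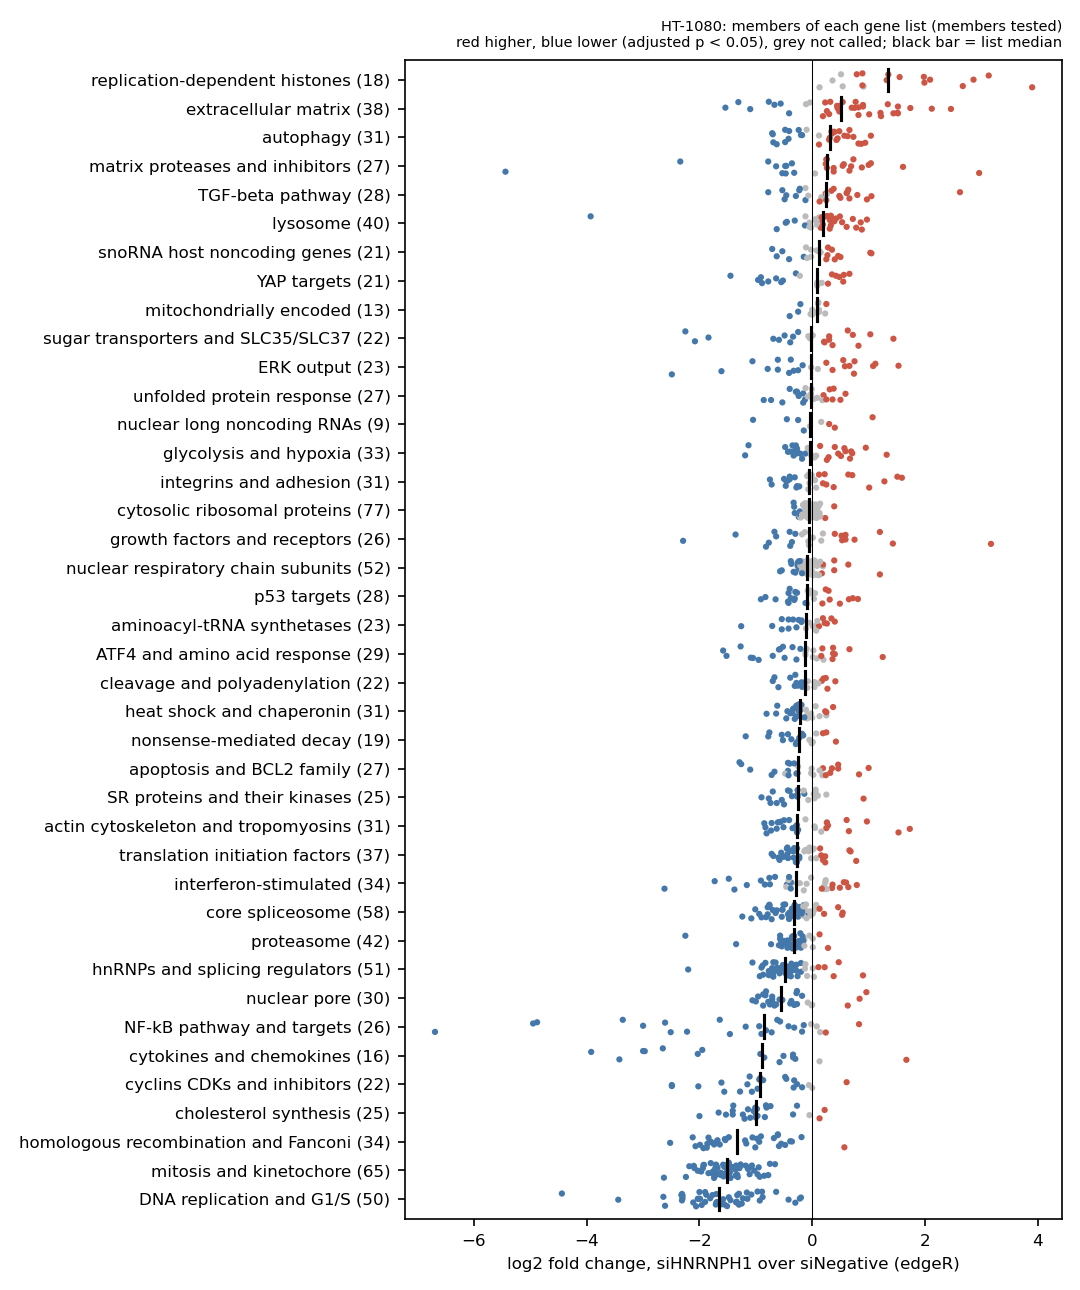
Log2 fold change, siHNRNPH1 over siNegative, of each tested member of 40 gene lists, ordered by list median (black bar), with members in red (higher), blue (lower) or grey (not called). The DNA replication, mitosis and homologous recombination lists sit lowest, with medians of -1.65, -1.51 and -1.33, and the replication-dependent histones highest, at 1.33 (0.84 to 1.72 over the alternatives).

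Replication-dependent histone genes went the other way. These genes supply histones during S phase, and their mRNAs normally end in a stem-loop in place of a poly(A) tail. Only 18 of 53 listed genes passed the filter, of which 13 were higher and 0 lower, with a median log2 fold change of 1.33, against 32.7% higher in the background. The median was 0.84 over the 38 genes with at least 1 count and 1.72 over the 4 at 10 CPM or more. H2AC6 went from 8.06, 9.5 and 8.16 CPM to 36.3, 38.7 and 39.9 CPM (2.09, SE 0.078; edgeR BH-adjusted p = 2.72e-08), and H2BC5 from 2.05, 1.63 and 2.25 to 15.4, 14.5 and 15.3 CPM (2.86, SE 0.11; edgeR BH-adjusted p = 3.16e-08). The groups did not overlap in either gene. H1-2, a linker histone, changed by 1.35, while H2AC18 (3.9) lost its call in DESeq2 (adjusted p = 0.194) and with the replicate number as a block (edgeR BH-adjusted p = 0.114). SLBP, the protein that binds the histone stem-loop, went from 52.7, 55.0 and 51.0 to 24.8, 25.6 and 24.6 CPM (-1.15, SE 0.054; edgeR BH-adjusted p = 1.01e-07). The summed level of the list was 67.1 to 79.9 CPM with siNegative and 209.2 to 228.8 CPM with siHNRNPH1. A gene of this list that was low in every library could not pass the filter. Genes could pass on the libraries of 1 group alone, as H2AC18 did, at 3.59, 0 and 0 CPM with siNegative. The counts of 13 higher and 0 lower therefore describe the list and are no test of it. Histone genes are also near-identical copies among which RSEM divides reads, so single members are uncertain. The values cover only RNA that the library preparation captured, which is not described here.

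NF-kB signalling held 4 of the 12 largest falls named above, BIRC3, TRAF1, TNFRSF9 and NFKBIE. NF-kB dimers are held in the cytoplasm by inhibitors and released by receptor signals, through a canonical arm that uses RELA and NFKB1 and a non-canonical arm in which the kinase NIK (MAP3K14) leads to processing of NFKB2, the partner of RELB. Of 28 listed genes 26 were tested, of which 21 were lower and 2 higher, with a median log2 fold change of -0.86, against a background of 32.6% lower and 32.7% higher. Without siNegative replicate 2 the counts were again 21 and 2, and the median was -0.82. The members that did not fall were BCL3 (0.83) and TRAF3 (0.24), which rose, and NFKBIZ (0.14), REL (0.08) and NFKBIB (-0.02), which did not pass.

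Among the receptors and adaptors, TNFRSF9, a receptor of the tumour necrosis factor family, went from 32.4, 30.1 and 31.8 CPM to 3.49, 3.25 and 2.88 CPM (log2 fold change -3.36, SE 0.081; edgeR BH-adjusted p = 5.58e-09). TRAF1, an adaptor for such receptors, went from 60.4, 54.5 and 57.2 to 1.71, 1.81 and 2.32 CPM (-4.95, SE 0.094; edgeR BH-adjusted p = 2.54e-09). Neither gene's groups overlapped. Within the non-canonical arm, MAP3K14 went from 206.5, 199.9 and 205.8 to 67.5, 66.8 and 71.5 CPM (-1.64, SE 0.044), NFKB2 from 224.8, 226.4 and 227.2 to 38.4, 39.8 and 38.2 CPM (-2.61, SE 0.043) and RELB from 29.6, 32.8 and 31.7 to 11.1, 12.2 and 12.4 CPM (-1.46, SE 0.071). All 3 were lower in every siHNRNPH1 library, at edgeR BH-adjusted p = 6.35e-09, 2.54e-09 and 1.22e-07. The canonical subunits moved less, RELA by -0.15 (125.8 CPM ± 0.296 against 118.4 CPM ± 2.05, SD, n = 3 each) and NFKB1 by -0.94, though the difference between the arms was not tested. Inhibitors that are themselves NF-kB targets fell as well, with log2 fold changes of -2.22 for NFKBIA, -3.0 for NFKBIE and -2.51 for TNFAIP3. MAP3K14 also changed in transcript usage: ENST00000344686.8 held 76.3% ± 2.01 (SD, n = 3) of its counts with siNegative and 56.4% ± 2.59 (SD, n = 3) with siHNRNPH1.

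Cytokines and chemokines, many of them known NF-kB targets, were lower for 14 of 16 tested genes (25 listed), with 1 higher. The background was 32.6% lower and 32.7% higher. Their median log2 fold change was -0.88 and ran from -1.33 to -0.29 over the alternatives. A low gene of this list could pass the filter on the libraries of 1 group alone, so the counts describe the list and are no test of it. IL32 went from 13.5, 15.7 and 14.7 CPM to 1.58, 1.1 and 1.65 CPM (-3.42, SE 0.14; edgeR BH-adjusted p = 4.2e-08). The neutrophil attractant CXCL8 went from 23.5, 26.5 and 23.7 to 6.47, 6.46 and 5.9 CPM (-2.03, SE 0.081), and the monocyte attractant CCL2 from 20.2, 21.6 and 21.9 to 5.99, 5.42 and 5.86 CPM (-1.95, SE 0.075). Both were lower in every siHNRNPH1 library, at edgeR BH-adjusted p = 4.14e-08 and 3.16e-08. IL1B, with 852.6, 863.7 and 846.5 CPM in the siNegative libraries, fell less, to 644.6, 638.6 and 609.2 CPM (-0.51). IL11, a cytokine of the IL-6 family, was the exception and rose from 66.5, 72.4 and 66.4 to 230.1, 231.5 and 223.8 CPM (1.67, SE 0.051; edgeR BH-adjusted p = 9.08e-09). IL6 itself (0.13) did not pass.

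**Figure D3:**
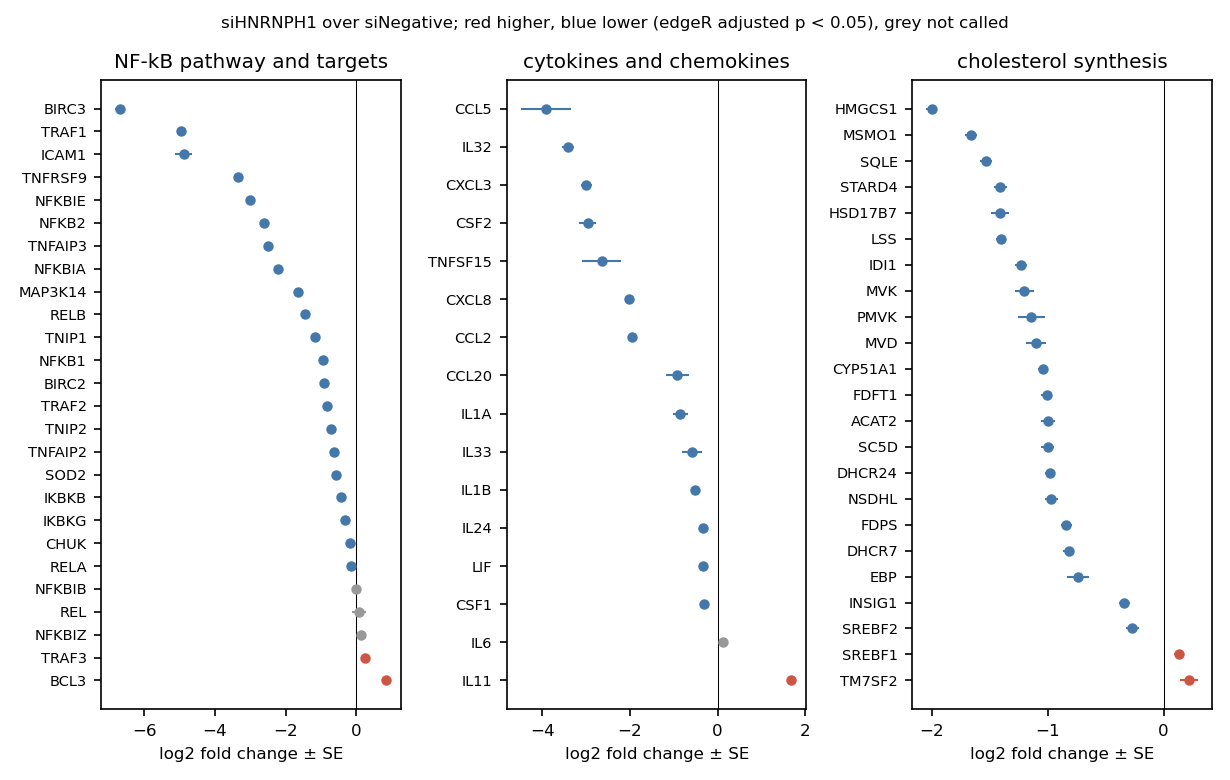
Log2 fold change with its standard error for tested members of the NF-kB, cytokine and cholesterol synthesis lists. Members called higher are red, called lower blue and not called grey; BIRC3 is lowest at -6.69 and IL11 highest at 1.67.

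Cholesterol synthesis fell along its length. The pathway builds sterols from acetyl-CoA through mevalonate and squalene, and its genes are controlled by the factor SREBP-2. Of 26 listed genes 25 were tested, and 22 were lower and 2 higher, with a median log2 fold change of -1.0. Over all genes tested the shares were 32.6% lower and 32.7% higher. Of the early steps, HMGCS1, which makes HMG-CoA, went from 224.1, 207.1 and 222.4 CPM to 58.1, 58.4 and 54.8 CPM (-2.0, SE 0.049; edgeR BH-adjusted p = 5.7e-09). Its groups did not overlap. In the later steps, SQLE, which oxidises squalene, went from 76.8, 70.8 and 73.0 to 25.6, 27.4 and 26.9 CPM (-1.53) and MSMO1, which removes sterol methyl groups, from 136.4, 133.7 and 126.9 to 46.0, 43.0 and 42.7 CPM (-1.66). The regulators moved less. SREBF2, which encodes SREBP-2, changed by -0.27 and INSIG1, its retention factor, by -0.34. The members that rose were TM7SF2 (0.22) and SREBF1 (0.13), and both lost their calls in several of the fits that left out 1 library. A CCAAT box stood in 15 of the 19 promoter windows of this list (78.9%), against 36.9% of the tested genes.

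Matrix genes mostly rose. The extracellular matrix list, which holds fibrillar and basement membrane collagens, laminins, fibronectin and their crosslinking enzymes, had 29 of 38 tested members (43 listed) higher and 7 lower, with a median log2 fold change of 0.51, against 32.7% higher and 32.6% lower among all genes. Its summed level went from 10673 to 12019 CPM in the siNegative libraries to 16214 to 16544 CPM in the siHNRNPH1 libraries. Over the list siNegative replicate 2 lay below the other siNegative libraries, by a median of -0.13 from the group mean, and without it the counts were 29 and 9 and the median 0.52.

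Fibronectin (FN1), the matrix glycoprotein that integrins bind, went from 1078, 844.7 and 1088 CPM to 3007, 2934 and 3080 CPM, a log2 fold change of 1.52 (SE 0.087; edgeR BH-adjusted p = 3.73e-07). THBS1, which can activate latent TGF-beta, went from 186.5, 157.0 and 185.7 to 826.2, 791.0 and 792.0 CPM (2.12, SE 0.067; edgeR BH-adjusted p = 1.06e-08). The proteoglycan versican (VCAN) went from 40.1, 29.1 and 39.7 to 131.9, 123.9 and 123.8 CPM (1.74, SE 0.1; edgeR BH-adjusted p = 4.21e-07). In all 3 the siHNRNPH1 libraries were above every siNegative library, and siNegative replicate 2 was the lowest. Without it the changes were 1.41 for FN1, 2.04 for THBS1 and 1.60 for VCAN. Laminins split by chain. LAMA4, a laminin chain of vessel and muscle basement membranes, rose by 1.52, whereas LAMB3 went from 1825, 1820 and 1772 to 653.3, 650.0 and 644.7 CPM (-1.54, SE 0.044; edgeR BH-adjusted p = 7.29e-09). LAMA5 also fell, by 1.10, while LAMA3 rose by 1.21. Of 44 collagen genes 23 were tested, and 17 were higher and 3 lower, with a median of 0.70. Among them COL5A1 rose by 1.51, COL13A1 by 1.44 and COL6A3 by 0.82, and COL6A1 (-0.67), COL6A2 (-0.41) and the hemidesmosomal COL17A1 (-0.62) fell.

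Proteases that act on the matrix and the TGF-beta pathway were mixed with a lean upward. Of 34 listed proteases and inhibitors 27 were tested, and 16 were higher (59.3%) and 10 lower (37%), with a median log2 fold change of 0.26. The shares over all genes were 32.7% higher and 32.6% lower. The membrane metalloprotease MMP24 rose by 2.96, ADAM12 by 1.61 and ADAM19, a disintegrin protease, from 293.0, 241.4 and 282.5 CPM to 599.6, 577.6 and 588.8 CPM (1.04, SE 0.066; edgeR BH-adjusted p = 6.73e-07). The gelatinase MMP9, also known as an NF-kB target, went from 8.09, 8.14 and 7.76 to 0.308, 0.0612 and 0.211 CPM, and the plasminogen activator PLAU changed by -0.78. In the TGF-beta pathway, 15 of 28 tested members were higher (53.6%) and 8 lower (28.6%), with a median of 0.24. Here too siNegative replicate 2 lay below its group, by -0.08. The ligand subunit INHBA, which forms activin A, went from 38.4, 31.2 and 37.8 to 235.5, 226.0 and 231.9 CPM (2.62, SE 0.071; edgeR BH-adjusted p = 6.39e-09). The latency protein LTBP1 went from 140.5, 120.8 and 140.7 to 297.3, 284.6 and 291.6 CPM (1.05), and the receptor TGFBR2 from 548.2, 459.3 and 557.7 to 1092, 1050 and 1077 CPM (0.97). All 3 were higher in every siHNRNPH1 library. Genes that TGF-beta family signals are known to induce did not move together: CCN2 changed by -0.78, ID1 by -0.53, SMAD7 by -0.29 and SKIL by 0.62.

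Lysosome genes leaned upward and autophagy genes moved both ways. Lysosomes digest material delivered by endocytosis and by autophagy, in which a double membrane encloses cytoplasm. Of 40 tested lysosome genes 25 were higher and 6 lower, with a median log2 fold change of 0.19, and of 31 autophagy genes 18 were higher and 11 lower, with a median of 0.31, against 32.7% higher and 32.6% lower among all genes. TFEB, a transcription factor that controls such genes, went from 8.53, 9.6 and 9.35 CPM to 18.2, 17.5 and 17.3 CPM (0.88, SE 0.072; edgeR BH-adjusted p = 3.77e-06). The glucosidase GAA went from 30.4, 32.6 and 31.4 to 64.6, 66.6 and 62.9 CPM (0.97, SE 0.052), and ULK1, the kinase that starts autophagy, from 44.7, 43.8 and 46.0 to 96.9, 96.0 and 97.6 CPM (1.04, SE 0.043). The groups were apart for all 3, at edgeR BH-adjusted p = 2.31e-07 for GAA and 4.67e-08 for ULK1. SQSTM1, the cargo receptor p62, went down from 1186, 1229 and 1187 to 765.2, 804.5 and 767.3 CPM (-0.69), ATG5 changed by -0.7 and the protease CTSS by -3.93.

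The RNA-processing machinery that HNRNPH1 belongs to fell broadly and by modest amounts. Of 55 listed hnRNPs and splicing regulators other than the target 51 were tested, and 41 were lower and 5 higher, with a median log2 fold change of -0.48. Of all genes tested, 32.6% were lower and 32.7% higher. RBM3, a cold-inducible RNA-binding protein, had the largest change, from 228.3, 260.0 and 225.9 CPM to 54.1, 55.3 and 53.9 CPM (-2.2, SE 0.064; edgeR BH-adjusted p = 7.29e-09). RALY, an hnRNP C relative, went from 134.2, 160.0 and 137.5 to 74.9, 83.4 and 79.8 CPM (-0.93), and HNRNPA1, which often represses exons, from 1379, 1430 and 1349 to 1107, 1109 and 1113 CPM (-0.39). The siHNRNPH1 libraries of all 3 lay below their siNegative libraries. HNRNPH3, a shorter relative of the target, went from 209.6, 204.1 and 206.0 to 408.1, 400.7 and 399.4 CPM, and RBM5, a splicing regulator of apoptosis genes, rose by 0.47. HNRNPH2 fell by 0.90, but it is a near copy of HNRNPH1 among whose reads RSEM must divide, so its value is uncertain.

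The core spliceosome showed 42 of 58 members lower and 5 higher, with a median of -0.32, against 32.6% lower and 32.7% higher among all genes. The Sm and LSm ring proteins that coat spliceosomal RNAs were among its deeper falls, LSM6 by 1.24, LSM5 by 1.08 and SNRPG by 1.01, while PLRG1, of the PRPF19 complex, rose by 0.54. SR proteins, which promote exon use, and their kinases had 15 of 25 lower and 1 higher, with a median of -0.26. SRSF7 went from 159.6, 177.0 and 161.2 to 93.9, 95.4 and 89.6 CPM (-0.9, SE 0.055; edgeR BH-adjusted p = 5.31e-07), and SRSF8, the member that rose, from 29.6, 27.2 and 26.2 to 53.3, 55.2 and 55.1 CPM (0.91). Of 19 genes of nonsense-mediated decay, the pathway that removes RNAs with early stop codons, 12 were lower and 3 higher, with a median of -0.23. The nuclear pore list, whose proteins carry RNA and protein across the envelope, had 24 of 30 lower, 3 higher and a median of -0.56.

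**Figure D4:**
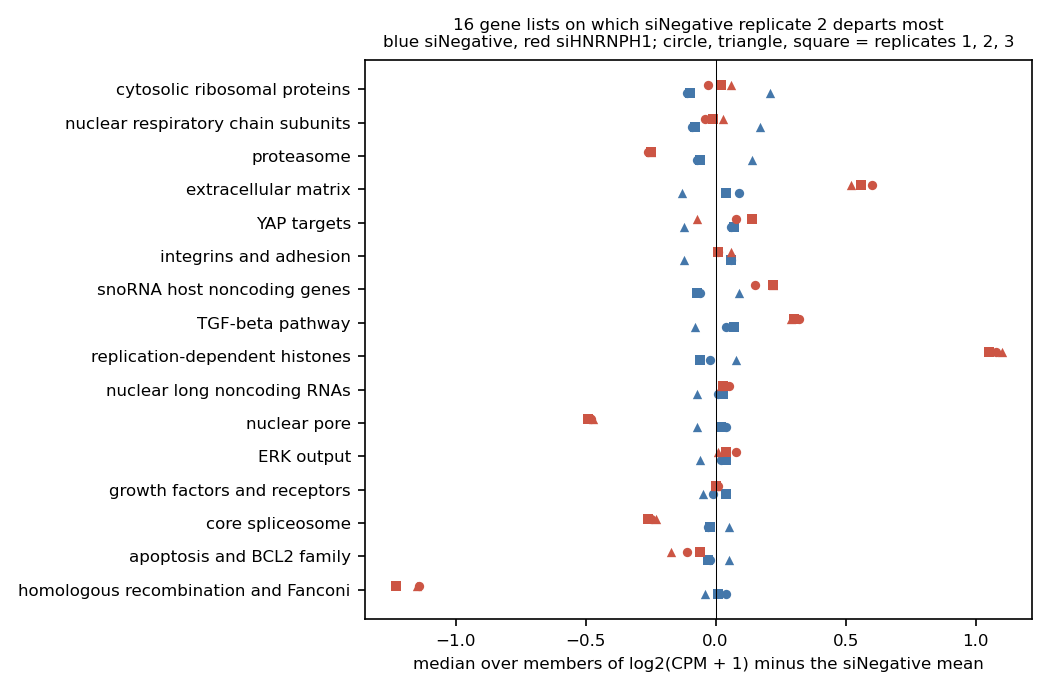
Median over the members of each list of log2(CPM + 1) minus the siNegative mean, per library, for the 16 lists on which siNegative replicate 2 (blue triangle) departs most from its group. On cytosolic ribosomal proteins it lies at 0.21 while the other siNegative libraries lie at -0.11 and -0.1, and all siHNRNPH1 libraries fall between.

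Protein synthesis and mitochondrial genes are where siNegative replicate 2 decided the count. Cytosolic ribosomal proteins had 2 of 77 higher and 7 lower with all libraries, with a median log2 fold change of -0.06, against 34 higher and 11 lower and a median of 0.06 without siNegative replicate 2. That library held 73580 CPM in this list, where the lowest siNegative library held 59380 CPM and the siHNRNPH1 libraries 64167 to 66826 CPM. No direction is therefore given for this list, whose median was also 0.01 when libraries were scaled by size alone. Nuclear-encoded respiratory chain subunits had 6 of 52 higher and 15 lower, and 19 and 18 without that library. The 13 mitochondrially encoded genes had 1 higher and 3 lower, and 6 and 3 without it. Mitochondrial ribosomal proteins, a separate family of 78 genes, had 54 lower and 6 higher with a median of -0.35, and between 47 and 57 lower in the fits that left out 1 library. MRPL50 was lowest among those above 5 CPM, from 28.1, 29.1 and 29.6 to 5.24, 5.08 and 5.2 CPM (-2.55, SE 0.065; edgeR BH-adjusted p = 5.98e-09). Translation initiation factors had 21 of 37 lower and 8 higher (median -0.27), with EIF4A2 the highest at 0.78. The background for these counts was 32.6% lower and 32.7% higher.

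The proteasome had 35 of 42 members lower and 2 higher, with a median log2 fold change of -0.33, and siNegative replicate 2 lay 0.14 above its group mean on this list. Without that library 36 were lower and 4 higher, and the median was -0.25. The deepest falls were in subunits that replace the catalytic sites to form the immunoproteasome. PSMB10 went from 20.8, 26.0 and 20.7 CPM to 5.03, 4.81 and 5.02 CPM (-2.25, SE 0.11; edgeR BH-adjusted p = 1.39e-07) and PSMB9 from 11.6, 13.8 and 11.5 to 4.49, 5.48 and 5.13 CPM (-1.35, SE 0.11; edgeR BH-adjusted p = 3.86e-06). The groups of neither overlapped. PSMB8, the remaining such subunit, changed by -0.44. Interferon-stimulated genes as a list (40 listed) had 14 of 34 tested genes lower (41.2%), 8 higher (23.5%) and a median of -0.29 (-0.39 to -0.19 over the alternatives). Among all genes tested 32.6% were lower and 32.7% higher. Within it OAS3, a sensor of double-stranded RNA, went from 30.1, 25.1 and 29.5 to 4.59, 4.78 and 5.02 CPM (-2.62), and IRF9, a subunit of the interferon-activated factor, from 19.9, 20.6 and 20.5 to 37.4, 36.6 and 36.6 CPM (0.79).

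The actin cytoskeleton list was mostly lower, 18 of 31 tested genes with 8 higher and a median of -0.27. Among all genes 32.6% were lower and 32.7% higher. The tropomyosins of the list, which coat actin filaments, moved in opposite directions. TPM4 went from 190.1, 195.7 and 189.9 CPM to 576.8, 595.0 and 566.7 CPM (log2 fold change 1.53, SE 0.045; edgeR BH-adjusted p = 7.29e-09). TPM1 went from 287.1, 294.0 and 295.3 to 175.1, 172.6 and 175.2 CPM (-0.81, SE 0.039; edgeR BH-adjusted p = 1.26e-07). No library of one group reached the other in either gene. TPM3 changed by -0.58 and TPM2 by 0.65. The list of ERK pathway outputs was split, 10 of 23 tested genes higher and 11 lower, with a median whose sign depended on the scaling (-0.02, or 0.05 with library size alone). In it FOSL1, an AP-1 subunit, went from 525.6, 495.6 and 537.5 to 182.5, 184.6 and 168.2 CPM (-1.61), and the ligand TGFA from 41.4, 38.7 and 41.6 to 92.3, 93.3 and 92.3 CPM (1.12). Glycolysis and hypoxia genes were split likewise, 13 of 33 tested genes higher and 15 lower, with a median of -0.04 that was 0.03 with library size alone. There the glucose transporter SLC2A3 rose by 1.32, while BNIP3, a mitophagy receptor, fell by 1.13.

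Some large gene families differed in direction from the shares over all genes tested. Of 557 zinc finger genes named ZNF 432 were tested, and 233 were higher (53.9%) and 66 lower (15.3%), with a median log2 fold change of 0.30. The shares of all genes tested were 32.7% higher and 32.6% lower. ZNF616 rose most among those at 5 CPM or more, from 2.64, 2.72 and 3.04 CPM to 16.9, 15.6 and 14.1 CPM (2.4, SE 0.1; edgeR BH-adjusted p = 6.94e-08), and ZNF91, a repressor of mobile elements, rose by 1.58. Against the family, ZNF367 fell by 3.23. Protocadherins, cell-adhesion proteins of which some clustered genes share their last exons, had 31 of 36 tested genes (79 in the table) higher and 0 lower with a median of 1.12. PCDHGC3 went from 117.5, 106.5 and 114.2 to 263.4, 251.1 and 260.1 CPM (1.13), and PCDHGB4 from 30.5, 24.7 and 29.4 to 60.5, 61.0 and 57.8 CPM (1.02). Both were apart between the groups, but reads in the shared exons cannot be assigned to a single gene of the cluster, so these genes are uncertain and not independent of each other. Of 1770 genes named as antisense 404 were tested, and 173 were higher (42.8%) and 74 lower (18.3%). Of 2248 long intergenic noncoding genes named LINC 245 were tested, and 104 were higher (42.4%) and 43 lower (17.6%). Members of these families and of the protocadherins could pass the filter on the libraries of 1 group alone. Over all genes, 1405 rose and 1109 fell at least 2-fold, but 380 and 485 did among genes at 10 CPM or more. The shares over all genes were not matched for level, so these counts describe the families and are no test of them. The strand setting is not given in the sources used here, so reads of an antisense gene cannot be told apart from those of the gene it overlaps. DEAD and DEAH box RNA helicases had 30 of 52 lower (57.7%) and 8 higher, and histone demethylases named KDM 9 of 17 higher and 4 lower.

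Transcript usage asked which genes changed the make-up of their RNA. The share of transcripts was called changed in 2248 of 10780 genes tested (20.9%) by limma diffSplice. On simulated data this test called more unchanged genes than its threshold allows, so some of the usage calls, in the lists too, can be false, and a stricter measure leads here, the switch, in which 1 transcript gained and another lost at least 10 percentage points of the gene, with no overlap between the groups for either. A switch was found in 547 genes (5.07%), of which 227 were higher in gene level, 186 lower and 134 not called. Without siNegative replicate 2 there were 599, and 421 of the 547 were among them. A second tool, edgeR's diffSpliceDGE, called 188 switches, 158 of them shared. The files name transcripts by identifier and RSEM estimates their shares, so exons are not described here.

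The clearest switches were in abundant genes whose replicates lay within a few points of each other. MYL6, a myosin light chain, had 28.4, 28.7 and 30.2% of its counts in ENST00000550697.6 with siNegative and 68.0, 66.9 and 66.9% with siHNRNPH1, while ENST00000547649.5 went from 54.7% ± 1.07 to 15.1% ± 1.08 (SD, n = 3 each). EIF4H, which stimulates the translation helicase eIF4A, moved from ENST00000353999.6 (65.2% ± 1.27 to 26.7% ± 0.324, SD, n = 3 each) to ENST00000265753.13, at 29.6, 28.1 and 28.4% against 66.4, 66.6 and 65.9%. PFN2, the profilin that feeds actin assembly, moved from ENST00000452853.6 (60.2% ± 1.43 to 25.2% ± 1.74, SD, n = 3 each) to ENST00000239940.12, at 36.3, 34.8 and 35.5% against 73.0, 70.9 and 70.3%. In all 3 genes the leading transcript exchanged its place in every library, at limma diffSplice BH-adjusted p = 4.52e-31, 6.36e-21 and 4.92e-27. Their gene levels changed little on the log2 scale. MYL6 changed by 0.16 (edgeR BH-adjusted p = 0.122), or by 0.28 without siNegative replicate 2 (edgeR BH-adjusted p = 8.63e-12). PFN2 changed by -0.03 (edgeR BH-adjusted p = 0.526). EIF4H changed by -0.27 and was called lower (edgeR BH-adjusted p = 0.000227).

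**Figure D5:**
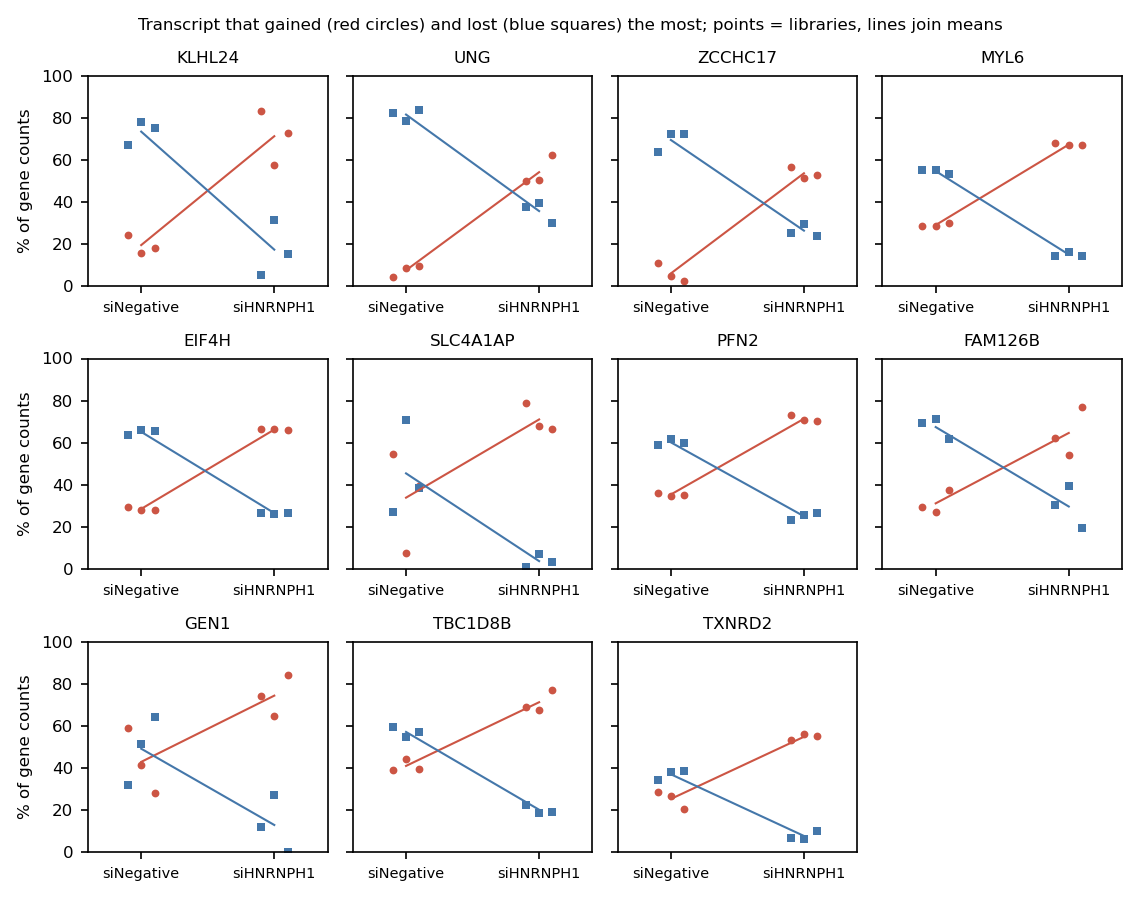
Percent of the gene's counts in the transcript that gained most (red circles) and the one that lost most (blue squares), per library, for switches named by rule, with lines joining the group means. MYL6, EIF4H and PFN2 have nearly coincident replicates, whereas SLC4A1AP and GEN1 have siNegative libraries that spread widely.

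The other named switches were in genes of lower level. In KLHL24, a substrate adaptor of a ubiquitin ligase, ENST00000454652.6 went from 24.6, 15.8 and 18.3% to 83.2, 57.5 and 73.0%, and ENST00000242810.11 from 73.4% ± 5.5 to 17.4% ± 13.3 (SD, n = 3 each). In UNG, the glycosylase that removes uracil from DNA, ENST00000336865.6 went from 4.58, 8.55 and 9.85% to 49.8, 50.5 and 62.1%, and ENST00000242576.7 from 81.5% ± 2.63 to 35.7% ± 4.91 (SD, n = 3 each). In ZCCHC17, a zinc finger protein, ENST00000373714.5 went from 10.9, 4.98 and 2.62% to 56.5, 51.4 and 53%. The siHNRNPH1 libraries of all 3 lay clear of the siNegative libraries, but diffSpliceDGE did not call UNG (adjusted p = 0.0667). TXNRD2, the mitochondrial thioredoxin reductase, gained 29.5 percentage points in ENST00000400521.7, and TBC1D8B, a regulator of RAB proteins, gained 30.2 points in ENST00000357242.10. Calls for SLC4A1AP, FAM126B and GEN1 rest on scattered libraries. In SLC4A1AP the transcript that gained was at 54.6, 7.73 and 39.8% in the siNegative libraries, the call for FAM126B was lost in diffSpliceDGE (adjusted p = 0.0528), and that for GEN1 was lost there (0.398) and without siNegative replicate 2 or 3 (limma diffSplice adjusted p = 0.0532 and 0.06) or siHNRNPH1 replicate 1 or 2 (0.15 and 0.153).

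Transcript usage was called in many of the hnRNPs and splicing regulators. Of 47 hnRNPs and splicing regulators tested for usage, 28 were called, where 20.9% of all genes were, yet 0 met the switch limits. Over all genes 5.07% met them. The shares over all genes were not matched for the level of this list. Taking for each of the 28 the transcript with the largest difference between groups that did not overlap, the median difference was 6.35 percentage points and the largest 26.9 points, in CELF2. CELF2, a splicing regulator, had 15.4, 18.9 and 12.2% of its counts in ENST00000417956.6 with siNegative and 32.6, 38.7 and 55.7% with siHNRNPH1 (limma diffSplice BH-adjusted p = 0.0289). The cold-inducible RBM3 and CIRBP changed by -13.6 and -12.9 points in ENST00000376755.1 and ENST00000320936.9. HNRNPA1 had 7.4, 7.4 and 7.5% of its counts in ENST00000678418.1 with siNegative and 15.8, 17.7 and 18.1% with siHNRNPH1 (limma diffSplice BH-adjusted p = 1.35e-14). RBM39, a U2AF-related splicing factor, had 11.9, 9.5 and 10.0% in ENST00000463004.5 against 22.7, 20.2 and 21.7% (limma diffSplice BH-adjusted p = 3.36e-09), and HNRNPH3 46.5, 49.2 and 47.1% in ENST00000265866.12 against 53.9, 54.2 and 56.1%. In HNRNPA1, RBM39 and HNRNPH3 the siHNRNPH1 libraries were higher. Of 24 SR protein genes and kinases 8 were called, among them SRSF10, whose ENST00000343255.9 fell from 25.9, 26.3 and 25.3% to 12.7, 13.4 and 14.3%. In the core spliceosome 14 of 53 were called, BUD31 gained 14.3 points in ENST00000222969.10, and SF3B1, the branch-point protein of U2, had 88.6, 85.7 and 89.3% against 76.7, 74.2 and 75.7% in ENST00000335508.11. The kinase DYRK1A was the member of these lists that met the switch limits, and in the cleavage and polyadenylation list, where 8 of 21 were called, the scaffold SYMPK did. SYMPK gained 17.6 points in ENST00000245934.12, but its call was lost without any of the siHNRNPH1 replicates (limma diffSplice adjusted p from 0.220 to 0.302). DYRK1A gained 10.2 points in ENST00000647504.1 and lost its call in diffSpliceDGE, with the replicate number as a block (limma diffSplice adjusted p = 0.0619) and in 3 of the 6 fits that left out 1 library.

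Some switches lay in the lists described above, where 5.07% of all genes tested for usage had one. The mitosis and kinetochore list held 7 among 62 genes tested for usage, among them BIRC5 and CENPA, and the DNA replication list 2 among 46, ORC6 and DUT, while the extracellular matrix, lysosome and proteasome lists held 0. CENPA, the centromeric histone, had 12.3, 9.33 and 7.21% in ENST00000233505.12 with siNegative and 26.4, 32.3 and 29.1% with siHNRNPH1. DUT, the enzyme that removes dUTP, went from 16.8, 16.2 and 16.3 to 36.8, 37.1 and 38.9% in ENST00000331200.8, while its gene level changed by only -0.22. Both were higher in every siHNRNPH1 library. CAV1, the caveolin of membrane pits and a mesenchymal marker here, moved from ENST00000393467.1 (47.7% ± 1.55 to 27.7% ± 1.7) to ENST00000341049.7 (47.1% ± 1.65 to 66.2% ± 1.89, SD, n = 3 each). EIF4A2, the helicase that EIF4H stimulates, gained 24.6 points in ENST00000323963.10, from 19.2, 16.2 and 18% to 42.5, 42.3 and 42.4%. For the long noncoding RNA NEAT1, the scaffold of nuclear paraspeckles, ENST00000501122.2 went from 24.6, 22.6 and 22.8% to 57.8, 56.3 and 51.8%, with a gene-level change of -0.15.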

How the data were processed

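RNA-seq of 6 HT-1080 libraries was analysed. The deposited table holds expected counts per transcript for 251295 transcripts, which the authors estimated with RSEM against GRCh38.p13, per the submitters' processing notes. The RSEM version, aligner, annotation release and strandedness are not given in the sources used here. The HEK-293T table and the full-length transcript models were not used here. Columns were matched to samples through the column names in the labels, and 0 value columns were left over. Transcripts were summed per gene identifier and rounded. Genes past edgeR's filterByExpr were scaled by TMM and tested with edgeR 4.0.16 (R 4.3.3; robust quasi-likelihood, two-sided), with BH adjustment over all genes tested and a threshold of 0.05. Transcript usage was tested with limma 3.58.1 (voom, diffSplice, Simes p per gene, BH). Percent of gene counts came from the unrounded values. Levels are CPM over all counts of the library. DESeq2 1.42.0 and edgeR's diffSpliceDGE were alternatives, with other scalings and filters, a replicate block and each library left out.

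Genes were named by rule: the target, the 12 largest changes per direction at a mean of at least 10 CPM with groups apart, up to 3 members per list and direction at 5 CPM or more, and the 12 largest switches at 20 CPM or more. Further genes were named after their values were seen, as members of a list, family or pathway step. The members, the 45 gene lists and the 23 families were chosen with earlier results of these data known. The tests were checked on simulated data with known changes. There the usage test called far more unchanged genes than its threshold allows, and the switch limits removed most of those calls. The gene test and the switches were slightly above the threshold share. Motifs were searched in RefSeq promoter windows (GRCh38.p14), matched by symbol, for 11123 tested genes. Some results of the named genes are not reported here.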

Additional observations from a re-analysis of the deposited data

How the results depend on the processing

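The count of 10538 changed genes stayed within 9535 to 11625 when 1 library was left out, was 9785 with DESeq2 and 10531 with library size alone, where 5943 were higher and 4588 lower and the median of all genes shifted to 0.074 from 0.006. HNRNPH1 was lower in every setting run, from -1.51 to -1.43. Genes changed at least 2-fold numbered 865 (380 higher, 485 lower) among the 9834 genes at 10 CPM or more, against 2514. With diffSpliceDGE, 585 genes changed in usage and 188 had a switch. Leaving out 1 library gave 1498 to 2218 genes with changed usage, against 2248, with the lowest count without siHNRNPH1 replicate 3, and 470 to 599 switches. The cause of these differences was not tested.

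Replicate numbers did not pair the samples: same-numbered libraries deviated from their group means with correlations of -0.002, 0.085 and 0.032. With the replicate number as a block, 10504 genes were changed, 2380 changed in usage and 544 had a switch. Of the named genes' calls, 3017 repeats under the alternatives kept direction and call, 40 lost the call, 9 gained it and 0 reversed. Medians of lists and families were less stable, with 585 repeats labelled the same and 227 moved. For named transcripts, 250 repeats kept the call and 30 lost it. With 3 libraries per group, changes that are small next to the spread between libraries were not detectable at this depth.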
